A study of Mus musculus with 8 samples.

Results

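The epidermal growth factor (EGF) family was examined in mouse kidney through 10 genes, 6 that encode ligands (Egf, Areg, Ereg, Hbegf, Tgfa and Btc) and 4 that encode receptors (Egfr, Erbb2, Erbb3 and Erbb4). They were chosen by gene symbol from the 34745 genes of the deposited expression table, and all 10 had enough reads to be among the 16576 genes tested. Areg and Ereg had enough reads only in groups where they are high. Bulk messenger RNA was sequenced from renal tissue of wild-type (WT) mice at day 14. Each of the 8 libraries carries the label sham (n = 2), uIRI (n = 3) or uIRI with MSC transplantation (uIRI+MSC, n = 3). In kidney work uIRI is the usual short form of unilateral ischaemia-reperfusion injury (1 kidney loses its blood flow for a time and then regains it), and MSC that of mesenchymal stem or stromal cell. Neither term is spelled out in the labels, which give no strain, age or sex and nothing on where the cells came from, how many were given or when. Whether each library is a different animal is not stated either, so p-values reflect the spread among these samples alone, and that spread may be technical.

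Ligands of this family are made as membrane-anchored precursors that proteases cut to release the active growth factor. Released ligand binds Egfr or Erbb4 and makes them pair with each other or with Erbb2, which has no ligand of its own, or Erbb3, whose kinase is nearly inactive, and the pairs signal through ERK, PI3K and STAT3. In the healthy kidney Egf is made mainly by the thick ascending limb and the distal convoluted tubule, passes into the urine, and acts on magnesium reabsorption, while Areg, Ereg, Hbegf and Tgfa are known as ligands of injured or inflamed epithelium.

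The libraries held 11592986 to 24300112 counts. Mitochondrially encoded transcripts took 14.2% of each sham library, against 3.49 to 4.84% of the uIRI and 6.07 to 11.3% of the uIRI+MSC libraries. On the third principal component uIRI+MSC 3 stood apart, at 62.3 against -15.1 to 8.32 for the other 7 libraries. Levels below are CPM, counts divided by library size after TMM scaling (a correction for differences in RNA composition), and a change is called when edgeR's quasi-likelihood test gave a Benjamini-Hochberg adjusted p under 0.05 over all tested genes. With no TMM factors, that is by library size alone, all genes had a median log2 change of 0.73 for uIRI against sham, -0.16 for uIRI+MSC against uIRI and 0.55 for uIRI+MSC against sham, where TMM gave 0.06, -0.01 and 0.03. Changes are therefore relative to the TMM scaling.

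The sequences just upstream of 3 ligand genes are shown because of the results below: Egf had by far the highest level in sham and fell, Areg had no counts in sham and rose, and Btc, which lies next to Areg on the chromosome, fell. Each is the 250 bases before a RefSeq transcription start, on the strand of the gene and on GRCm38.p6, with motif matches in capitals. Egf has a further RefSeq start, whose stretch, chr3:129725087-129725336, is not shown. The Areg stretch is chr5:91139349-91139598 on the plus strand, that of Egf is chr3:129755323-129755572 on the minus strand, and that of Btc is chr5:91402995-91403244 on the minus strand.
Areg: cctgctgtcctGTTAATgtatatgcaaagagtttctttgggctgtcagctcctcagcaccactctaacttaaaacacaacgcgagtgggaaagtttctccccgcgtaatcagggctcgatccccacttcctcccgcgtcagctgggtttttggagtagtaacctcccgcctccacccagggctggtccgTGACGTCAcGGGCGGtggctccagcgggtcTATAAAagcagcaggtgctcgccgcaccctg
Egf: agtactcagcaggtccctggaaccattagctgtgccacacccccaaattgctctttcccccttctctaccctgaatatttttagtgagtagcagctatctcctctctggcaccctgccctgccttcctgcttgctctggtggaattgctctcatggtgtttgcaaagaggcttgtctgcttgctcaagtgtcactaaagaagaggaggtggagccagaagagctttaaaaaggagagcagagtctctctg
Btc: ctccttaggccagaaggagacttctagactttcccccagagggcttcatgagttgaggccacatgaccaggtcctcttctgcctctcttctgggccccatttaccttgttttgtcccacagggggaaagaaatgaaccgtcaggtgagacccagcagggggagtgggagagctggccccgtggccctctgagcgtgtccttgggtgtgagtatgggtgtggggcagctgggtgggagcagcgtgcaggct

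Both strands were searched for 7 motifs, and the share of 32851 RefSeq promoters of the same length that hold each was counted. The AP-1 site was searched as TGANTCA and found in 6.75% of all promoters. The cyclic AMP response element, TGACGTCA, was in 1.55% and the TATA box, TATAAA, in 12.4%. The SP1 core, GGGCGG, was in 32.7% and the EGR site, GCGGGGGCG, in 2.57%. The TEAD core was searched as GGAATG and found in 12.6%, and the HNF1 core as GTTAAT, found in 6.43%. Matches of the SP1 core and the EGR site can share bases. In the Areg stretch the cyclic AMP response element lay 61 to 54 bases before the start, next to an SP1 core at 52 to 47 and a TATA box at 31 to 26, and an HNF1 core lay at 239 to 234. None of the 7 was found in the Egf and Btc stretches. Promoters of 7 of the 10 members were matched by symbol. Those of Ereg, Hbegf and Erbb3 were not. Among the others, Tgfa held an SP1 core at 126 to 121 bases before the start and another, on the opposite strand, at 15 to 10. Egfr held, on the opposite strand, an SP1 core at 9 to 4 and an HNF1 core at 214 to 209. Erbb2 held a TEAD core at 88 to 83, and Erbb4 none of the motifs. A match is a run of letters and was not tested as a binding site.

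In uIRI kidneys the ligands differed from sham in both directions. Egf, the dominant ligand of sham kidney, and Btc were lower, Areg and Ereg were detected where sham had no counts, and Hbegf and Tgfa did not pass. Of the 10 members 2 were higher, 3 were lower and 5 did not pass the test in uIRI against sham. Among all tested genes 28.3% were called higher and 26.3% lower in this comparison, so the members' share of calls was near that of all genes. The plot of levels by library shows all 10.

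**Figure D1:**
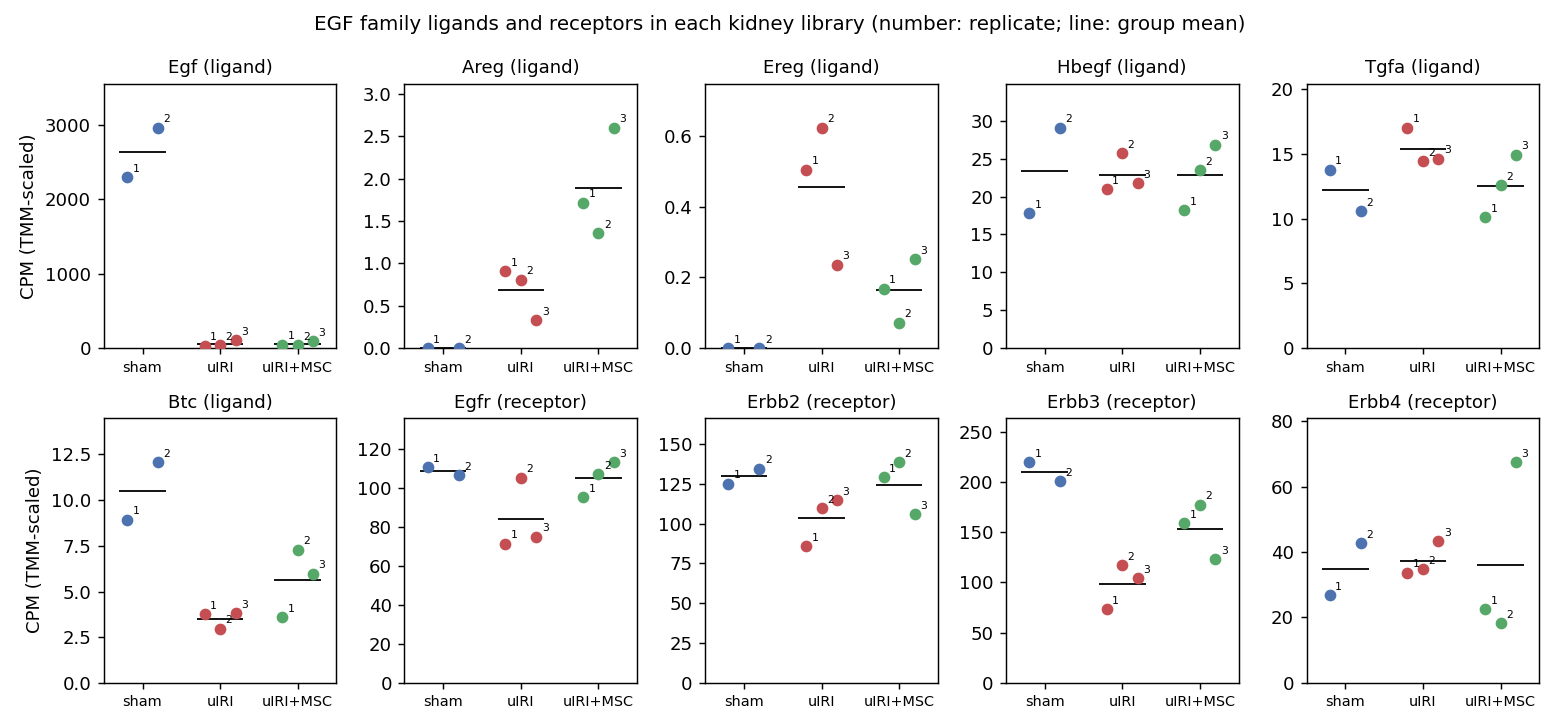
Level of each EGF family member in CPM (TMM-scaled, linear axis from 0, a separate scale for each gene) in the 8 kidney libraries, by group, with the replicate number beside each point and a line at the group mean. Egf falls from 2302 and 2964 in sham to 105 or less in every other library, Areg and Ereg are at 0 in both sham libraries, and Erbb4 in uIRI+MSC 3 (67.4) stands above the other libraries.

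Egf encodes the founding ligand of the family. Its level was 2302 and 2964 CPM in sham 1 and 2, and 34.0, 42.7 and 105 in uIRI 1, 2 and 3. The groups stood far apart, with uIRI 3 the highest of the injured libraries. The change was -5.44 ± 0.57 on the log2 scale (SE; 95% interval -6.73 to -4.15; adjusted p = 0.000123 by edgeR), which is 43.4-fold lower and the 44th lowest of the 16576 tested genes. Without uIRI 3 the change was -6.10 (adjusted p = 0.00015). In bulk tissue, fewer cells that make a transcript and less of it per cell cannot be told apart. On GRCm38 Egf (ENSMUSG00000028017) spans chromosome 3, 129677565 to 129755316, minus strand. Its exons share 500 bases with the antisense transcript 6330410L21Rik, which had 20 and 21 counts in sham and 0 to 5 elsewhere, and 607 bases with Gm42697, which had 0 counts throughout. The sources used here do not say whether reads were counted by strand, and these antisense counts are small beside the 23695 and 32190 of Egf in sham.

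With MSC transplantation the level of Egf was 45.2, 40.3 and 92.1 CPM in libraries 1, 2 and 3, again with library 3 the highest. All 3 values lay within the span of the uIRI libraries. Against sham the change was -5.48 ± 0.57 (SE; adjusted p = 0.000241 by edgeR), 44.5-fold lower and the 16th lowest of the tested genes. Against uIRI it was -0.04 ± 0.46 (95% interval -1.09 to 1.01; adjusted p = 0.975 by edgeR), and the sign turned with limma-voom (0.03) and without uIRI 3 (0.62).

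Areg encodes amphiregulin, a ligand of Egfr. It had 0 counts in both sham libraries, 27, 22 and 7 counts in uIRI 1, 2 and 3 and 41, 19 and 31 in uIRI+MSC 1, 2 and 3. In CPM the uIRI libraries were at 0.909, 0.807 and 0.330 and the uIRI+MSC libraries at 1.72, 1.36 and 2.60. The 3 groups did not overlap, with uIRI+MSC the highest, but every value is low. With the sham group taken at 3 counts in all, the upper 95% limit for a count of 0, Areg was at least 4.81-fold higher in uIRI (adjusted p = 0.00649 by edgeR) and at least 13.3-fold higher in uIRI+MSC (adjusted p = 0.00237 by edgeR). Between uIRI+MSC and uIRI the change was 1.43 ± 0.46 (SE; 95% interval 0.35 to 2.51), 2.69-fold, with an unadjusted p = 0.016 and an adjusted p = 0.158 by edgeR, so it did not pass. Over the alternatives the adjusted p of this difference was 0.103 to 0.281. Floors cover counting error only. Areg met the count filter only through the injured groups, where it is high, so its calls against sham are not independent of that filter. Areg (ENSMUSG00000029378) lies on chromosome 5, 91139599 to 91148432, plus strand.

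Ereg, which encodes epiregulin, a ligand of Egfr and Erbb4, also had 0 counts in both sham libraries. It had 15, 17 and 5 counts in uIRI 1, 2 and 3, or 0.505, 0.623 and 0.235 CPM, and 4, 1 and 3 counts in uIRI+MSC, or 0.167, 0.0715 and 0.252 CPM. The uIRI and uIRI+MSC libraries overlapped, since uIRI 3 was below uIRI+MSC 3. Ereg was at least 3.21-fold higher in uIRI than in sham (adjusted p = 0.0128 by edgeR), which no longer passed once sham 1 (adjusted p = 0.0584) or sham 2 (adjusted p = 0.056) was left out. The uIRI+MSC libraries did not pass against sham (adjusted p = 0.087 by edgeR). Ereg met the count filter only through uIRI, the group where it is high, so its call in uIRI is not independent of that filter. Its change between uIRI+MSC and uIRI was -1.48 ± 0.63 (adjusted p = 0.24 by edgeR), opposite in sign to that of Areg, and did not pass either. Whether Areg and Ereg differed in their change was not tested. Ereg (ENSMUSG00000029377) spans chromosome 5, 91074622 to 91093646, plus strand.

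Btc encodes betacellulin, a ligand of Egfr and Erbb4. Its level was 8.94 and 12.1 CPM in sham, 3.77, 2.97 and 3.82 in uIRI, and 3.60, 7.29 and 5.96 in uIRI+MSC. Both sham libraries were above all others, and uIRI+MSC 1 alone lay among the uIRI libraries. Btc fell in uIRI by 1.58 on the log2 scale (SE 0.32; adjusted p = 0.00292 by edgeR), a call kept in all 16 alternatives. For uIRI+MSC against sham the change was -0.91 ± 0.32 (SE; adjusted p = 0.0456 by edgeR), a call lost in 11 of 16 alternatives, the omission of each library other than uIRI+MSC 2 among them. Its change between uIRI+MSC and uIRI was 0.66 ± 0.29 (adjusted p = 0.241 by edgeR).

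Areg, Ereg and Btc lie side by side. With Epgn, which encodes epigen, they are 4 consecutive protein-coding genes on chromosome 5 within 375.5 kb, in the order Epgn (91027464 to 91035215), Ereg, Areg and Btc (91357261 to 91402994), the last on the minus strand. Within this cluster Areg and Ereg were called higher and Btc lower in uIRI. The calls of Areg and Ereg are not independent of the count filter, and Ereg had at most 17 counts in a library. Epgn had too few counts to be tested, with 0 CPM in both sham libraries and at most 0.183 in any library. The 3 neighbours that were tested did not share a direction.

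Hbegf encodes heparin-binding EGF-like growth factor, a ligand of Egfr and Erbb4. Its level was 17.8 and 29.1 CPM in sham, 20.9, 25.7 and 21.8 in uIRI and 18.2, 23.5 and 26.9 in uIRI+MSC, so that all 6 injured libraries lay between the sham libraries. The change was -0.04 ± 0.24 (95% interval -0.59 to 0.51; adjusted p = 0.901 by edgeR) in uIRI and -0.04 ± 0.24 (adjusted p = 0.906) in uIRI+MSC against sham. With library size alone both signs turned, to 0.61 (adjusted p = 0.0616) and 0.46 (adjusted p = 0.16). Hbegf (ENSMUSG00000024486) spans chromosome 18, 36504929 to 36515805, minus strand.

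Tgfa encodes transforming growth factor alpha, a ligand of Egfr that proximal tubule cells make after injury. It stood at 13.8 and 10.6 CPM in sham, 17.0, 14.4 and 14.6 in uIRI and 10.1, 12.6 and 14.9 in uIRI+MSC. The uIRI libraries were above both sham libraries by a narrow gap, and the uIRI+MSC libraries overlapped with both groups. The change in uIRI was 0.34 ± 0.22 (95% interval -0.16 to 0.83; adjusted p = 0.222 by edgeR) and did not pass, while with library size alone it was 1.01 (adjusted p = 0.00373). In uIRI+MSC against sham it was 0.04 ± 0.22 (adjusted p = 0.905 by edgeR). Tgfa (ENSMUSG00000029999) spans chromosome 6, 86195223 to 86275719, plus strand.

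Among the 4 receptors 1 was called lower in uIRI against sham, none higher, and none passed in uIRI+MSC against sham. Of all tested genes 26.3% were called lower and 28.3% higher in uIRI, so 1 of 4 is near that share. In uIRI+MSC against sham the shares of all genes were 20.3% lower and 22.1% higher. Erbb3, the receptor with the nearly inactive kinase that couples to PI3K, stood at 219 and 201 CPM in sham and at 73.5, 117 and 104 in uIRI. The uIRI+MSC libraries were at 159, 177 and 123, above every uIRI library and below both sham libraries. The change in uIRI against sham was -1.10 ± 0.22 (SE; 95% interval -1.59 to -0.60; adjusted p = 0.00293 by edgeR), 2.14-fold lower. With library size alone it was -0.43 (adjusted p = 0.0936), so this call rests on the scaling. Between uIRI+MSC and uIRI Erbb3 differed by 0.64 ± 0.20 (1.56-fold, 95% interval 0.19 to 1.09), with an unadjusted p = 0.0112 and an adjusted p = 0.139 by edgeR, and 0.0568 to 0.332 over the alternatives. For uIRI+MSC against sham the change was -0.45 ± 0.22 (adjusted p = 0.127 by edgeR), and 0.07 with library size alone. Erbb3 (ENSMUSG00000018166) spans chromosome 10, 128567523 to 128589652, minus strand.

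Egfr, the receptor for Egf, Areg and Tgfa, stood at 110 and 107 CPM in sham, 71.5, 105 and 75.0 in uIRI and 95.3, 107 and 113 in uIRI+MSC. All 3 uIRI libraries were below both sham libraries, uIRI 2 by very little. The change in uIRI was -0.37 ± 0.18 (95% interval -0.78 to 0.04; adjusted p = 0.113 by edgeR) and did not pass. It passed without uIRI 2 (-0.57, adjusted p = 0.0137), and with library size alone it turned to 0.29 (adjusted p = 0.154). Between uIRI+MSC and uIRI the change was 0.32 ± 0.16 (adjusted p = 0.299 by edgeR). Its change in uIRI+MSC against sham was -0.05 ± 0.18 (adjusted p = 0.858 by edgeR), and under library size alone 0.47 (adjusted p = 0.0442). Egfr (ENSMUSG00000020122) lies on chromosome 11, 16752203 to 16918158, plus strand.

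Erbb2, the receptor without a ligand, stood at 125 and 135 CPM in sham, 85.9, 110 and 115 in uIRI and 129, 138 and 106 in uIRI+MSC. The uIRI group had the lowest mean, as for Egfr, but uIRI+MSC 3 lay below uIRI 2 and 3. The change in uIRI was -0.33 ± 0.17 (95% interval -0.71 to 0.06; adjusted p = 0.135 by edgeR), and 0.33 (adjusted p = 0.118) with library size alone. For uIRI+MSC the change was 0.27 ± 0.15 against uIRI (adjusted p = 0.362 by edgeR) and -0.06 ± 0.17 against sham (adjusted p = 0.801), the latter 0.45 with library size alone. Erbb2 (ENSMUSG00000062312) lies on chromosome 11, 98412470 to 98437716, plus strand, and shares 9 exon bases with Mien1.

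Erbb4, which binds neuregulins and several EGF ligands, varied more between libraries of a group than between groups. It stood at 26.8 and 42.7 CPM in sham, 33.6, 34.8 and 43.3 in uIRI and 22.4, 18.2 and 67.4 in uIRI+MSC. The high value was that of uIRI+MSC 3, the library that stood apart from the rest. No comparison passed: the change was 0.10 ± 0.51 in uIRI against sham (adjusted p = 0.886 by edgeR), -0.06 ± 0.45 in uIRI+MSC against uIRI (adjusted p = 0.96) and 0.04 ± 0.51 in uIRI+MSC against sham (adjusted p = 0.956). Without uIRI+MSC 3 the last of these was -0.74 (adjusted p = 0.0473). Markers of urothelium and renal pelvis, 10 genes, summed to 3.59 and 82.4 CPM in sham 1 and 2, to between 37.6 and 115.5 in uIRI and to 11.2, 13.3 and 47.9 in libraries 1, 2 and 3 of uIRI+MSC. Within sham and within uIRI+MSC the library with the most Erbb4 also had the most of these markers, but within uIRI the library with the most markers, uIRI 1, had the least Erbb4. The part of the markers in the Erbb4 level was not tested. Erbb4 (ENSMUSG00000062209) spans chromosome 1, 68032186 to 69108059, minus strand.

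**Figure D2:**
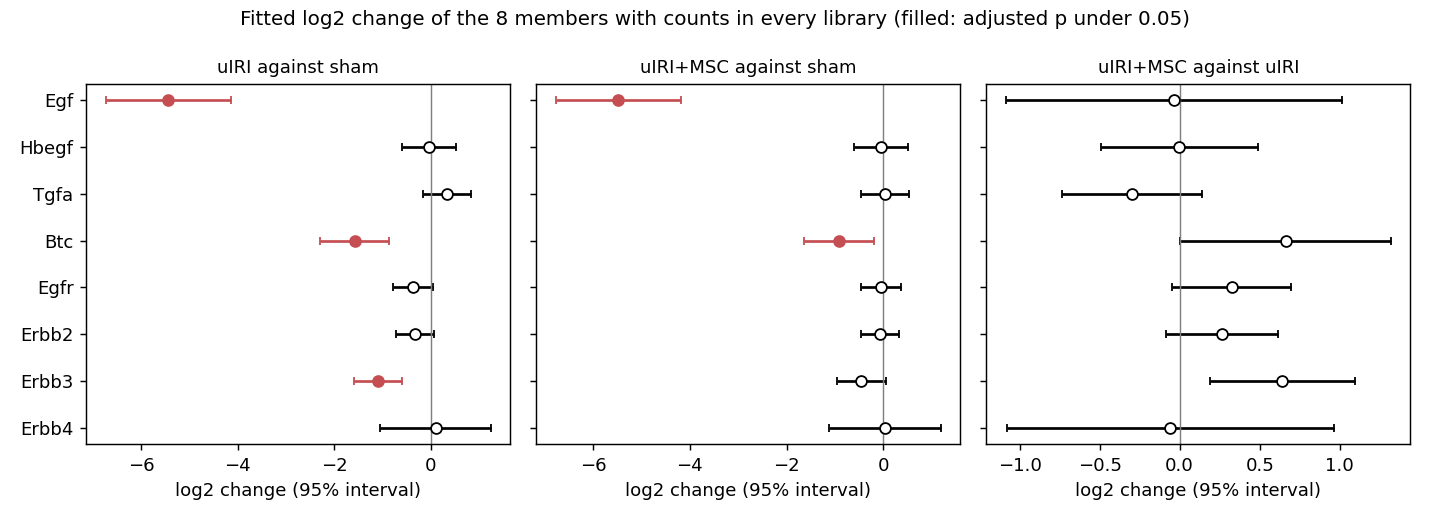
Fitted log2 change (horizontal axis) with its 95% interval for the 8 members that had counts in every library, in the 3 comparisons, with filled points for an adjusted p under 0.05. Egf lies near -5.4 in both comparisons with sham and near 0 between uIRI+MSC and uIRI, and the intervals of Hbegf, Tgfa, Egfr, Erbb2 and Erbb4 include 0 in every panel.

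The comparison of uIRI+MSC with uIRI asks what transplantation changed in the injured kidney. None of the 10 members passed, with edgeR, limma-voom or DESeq2, the last with no adjusted p for Ereg. Among all 16576 genes 0% were called higher and 0% lower by edgeR, where 3418 genes had an unadjusted p under 0.05. DESeq2 called 1364 genes and limma-voom 0, so the count of calls depended on the tool. Members with an unadjusted p under 0.05 were Areg, Btc and Erbb3, higher in uIRI+MSC, and Ereg, lower. Of the 10 members 2, Areg and Erbb3, had groups that did not overlap, where 26.9% of all tested genes had such groups, so this is no more than the share among all genes.

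In uIRI+MSC against sham 1 member was called higher (Areg), 2 lower (Egf and Btc) and 7 did not pass. The share of all tested genes was 22.1% higher and 20.3% lower. Because both comparisons use the same 2 sham libraries, their values are not independent of each other.

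To compare genes with each other, levels were taken per length of transcript, as FPKM. In sham the order was Egf (132.0 ± 30.9 FPKM, SD, n = 2), Erbb3 (25.6 ± 0.13), Erbb2 (14.2 ± 1.55), Hbegf (7.34 ± 2.90), Egfr (6.50 ± 0.21), Erbb4 (2.02 ± 0.76), Tgfa (1.22 ± 0.16) and Btc (1.02 ± 0.27), with Areg and Ereg at 0. Hbegf and Egfr, and Tgfa and Btc, did not differ beyond the spread of the libraries. In uIRI the order was led by Erbb3 (19.0 ± 3.62, n = 3) and Erbb2 (17.8 ± 2.08), which overlapped, then Hbegf (11.2 ± 0.91), Egfr (7.95 ± 1.5), Egf (4.78 ± 3.01), Erbb4 (3.41 ± 0.45), Tgfa (2.47 ± 0.34), Areg (0.66 ± 0.31), Btc (0.54 ± 0.09) and Ereg (0.13 ± 0.06). Libraries of Egf also overlapped with those of Egfr and Erbb4, and those of Areg with Btc, so these neighbours did not differ beyond their spread. The group means took the same order in uIRI+MSC, with Erbb3 at 26.8 ± 5.31, Egf at 4.19 ± 1.93 and Areg at 1.63 ± 0.52. There Erbb3 overlapped with Erbb2, Hbegf with Egfr, Egf with Erbb4, Erbb4 with Tgfa and Tgfa with Areg. FPKM values carry the total of each library and not the TMM scaling, so they are used here for order and shares within a library alone.

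The shares show which ligand made up most of the ligand transcripts. Egf was 93.7 and 92.9% of the summed FPKM of the 6 ligands in sham, 15.6, 17.1 and 37.3% in uIRI 1, 2 and 3 and 21.8, 16.6 and 27.6% in uIRI+MSC 1, 2 and 3. Hbegf, whose own level did not pass a test, was 4.49 and 5.67% in sham, 59.5, 64.1 and 47.9% in uIRI and 54.5, 60.2 and 50.1% in uIRI+MSC. In all 6 injured libraries Hbegf was thus the most abundant ligand transcript per length. Tgfa was 1.13 and 0.671% in sham and 9.06 to 15.7% in the injured libraries. Areg was 1.42 to 5.04% in the uIRI and 6.79 to 10.1% in the uIRI+MSC libraries. Shares are tied to each other, and with Egf lower every other share is higher.

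Of the summed FPKM of the 4 receptors, Erbb3 was 55.2 and 51.1% in sham, 36.6, 41.4 and 39.5% in uIRI and 48.0, 49.0 and 40.5% in uIRI+MSC. It was the most abundant receptor transcript in every library but uIRI 1, where Erbb2 held 38.1%. Erbb2 was 28.0 and 30.5% in sham and 34.6 to 38.8% in uIRI, Egfr 13.3 to 18.2% over all libraries, and Erbb4 2.37 to 10.4%, with its highest share in uIRI+MSC 3.

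**Figure D3:**
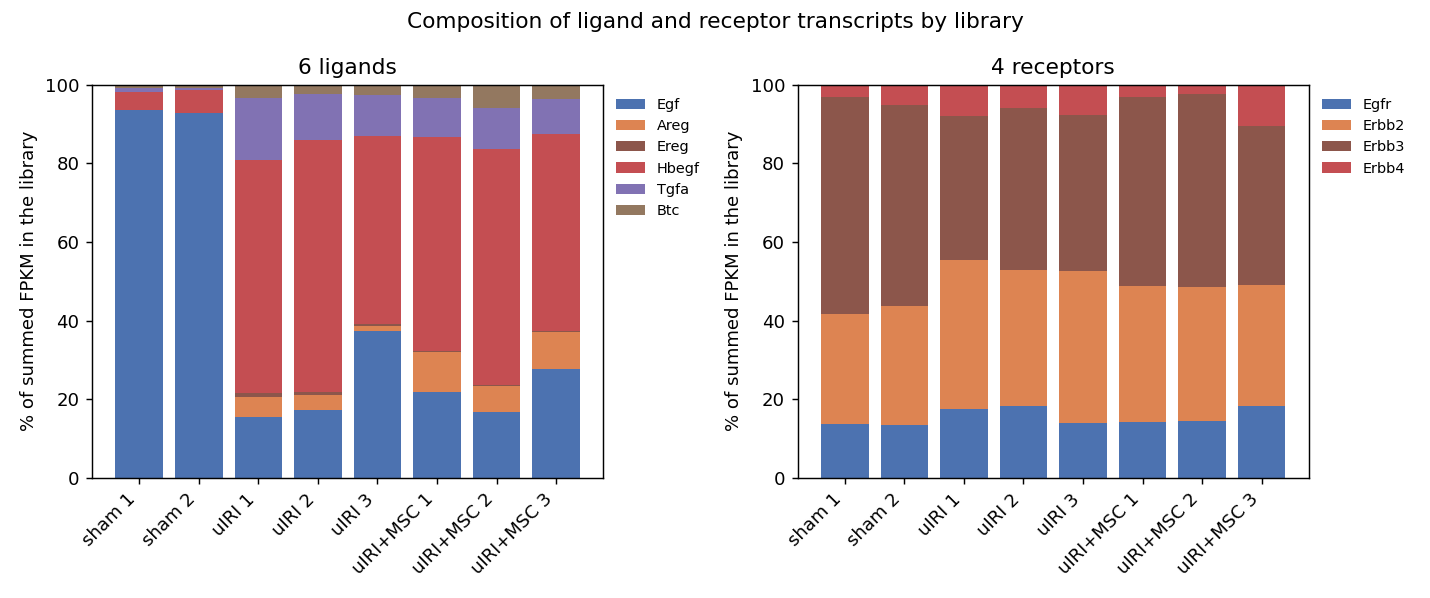
Share (vertical axis, % of summed FPKM) of each of the 6 ligands (left) and 4 receptors (right) in each library, stacked to 100%. Egf fills 93.7 and 92.9% of the ligand bar in sham and 15.6 to 37.3% elsewhere, where Hbegf is the largest part, while Erbb3 is the largest part of the receptor bar in every library but uIRI 1.

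Egf was set beside other transcripts of the tubule segments that make it. Of 10 thick ascending limb markers 8 were lower in uIRI than in sham, where 26.3% of all tested genes were called lower. The median log2 change was -1.68 over the list against 0.06 over all tested genes. Slc12a1, the sodium-potassium-chloride transporter of that segment, changed by -2.03 ± 0.46 (adjusted p = 0.00555 by edgeR), Ptger3 by -2.82 ± 0.33, Kcnj1 by -1.69 ± 0.27 and Umod, which encodes uromodulin, by -1.66 ± 0.44 (adjusted p = 0.0117 by edgeR; 0.0574 with library size alone). Tmem207 changed by -4.10 ± 0.58. Cldn14 and Enox1 did not pass. The summed level of the list was 9417 to 11112 CPM in sham, 2368 to 3739 in the uIRI and 1200 to 3196 in the uIRI+MSC libraries.

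Of 9 distal convoluted tubule markers 8 were lower in uIRI, beside 26.3% of all tested genes, with a median log2 change of -1.46. Slc12a3, the thiazide-sensitive transporter, changed by -2.59 ± 0.28, Calb1, which encodes a calcium-binding protein, by -4.65 ± 0.61 and the kinase gene Wnk4 by -1.42 ± 0.19. The calcium channel gene Trpv5 did not pass, at 0.23 ± 0.30. These markers summed to 2552 to 2618 CPM in sham, to 567.6 to 792.8 in uIRI and to 892.1 to 1040 in uIRI+MSC. With library size alone 2 thick limb markers were called higher and 6 lower, and 1 distal convoluted marker higher and 6 lower.

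Against 3 of these markers, Umod, Slc12a1 and Slc12a3, Egf was also followed as a ratio within each library. Its ratio to Umod, as FPKM, was 0.0567 and 0.0664 in sham, 0.00329, 0.0028 and 0.00713 in uIRI, and 0.00439, 0.00965 and 0.00648 in uIRI+MSC. To Slc12a1 it was 0.666 and 0.567 in sham, 0.0464 to 0.0673 in the uIRI and 0.0939 to 0.115 in the uIRI+MSC libraries. To Slc12a3 it was 0.533 and 0.668 in sham, 0.0518 to 0.114 in the uIRI and 0.0324 to 0.073 in the uIRI+MSC libraries. For none of the 3 markers did an injured library reach a sham library. Ratios within a library do not depend on its scaling. No ratio was taken to the remaining markers. Of these, Calb1 (-4.65) and Tmem207 (-4.10) had the lowest log2 changes in uIRI against sham, beside -5.44 for Egf. Outside both lists Pvalb, also a gene of the distal convoluted tubule, had a lower log2 change than Egf (-7.27), with values near 0 in uIRI. How far the markers and Egf share a cause was not tested.

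**Figure D4:**
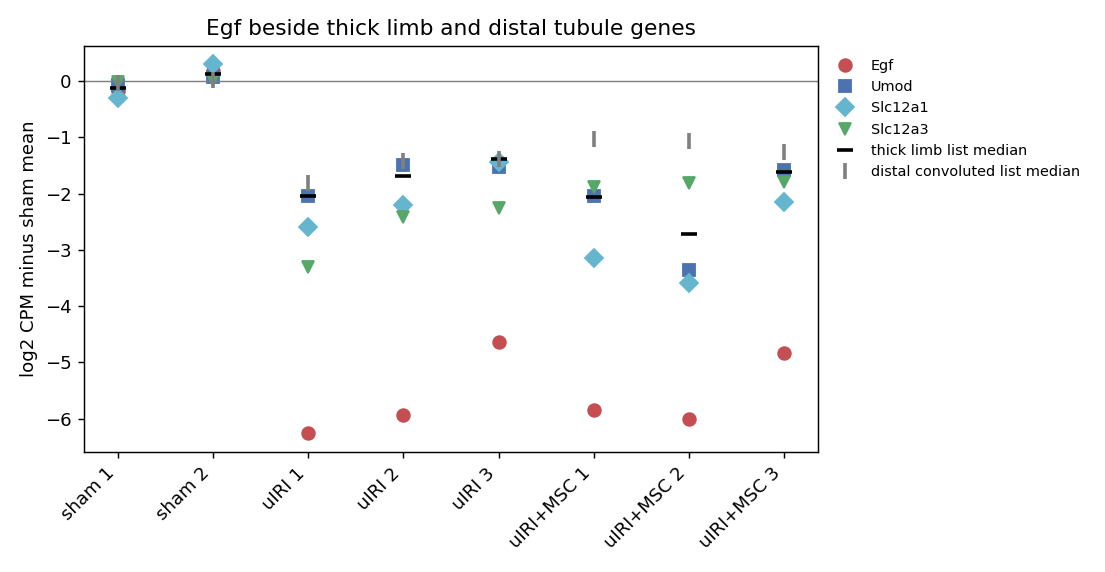
Log2 CPM minus the sham mean (vertical axis) in each library for Egf, the thick ascending limb genes Umod and Slc12a1, the distal convoluted tubule gene Slc12a3 and the medians of the marker lists of the same segments. Egf lies between -6.26 and -4.63 in the 6 injured libraries, below every other point of its library.

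Egf acts on magnesium reabsorption through the channel encoded by Trpm6. Trpm6 itself stood at 27.1 and 27.7 CPM in sham and 34.3, 28.4 and 24.0 in uIRI, and its change of 0.08 ± 0.24 (adjusted p = 0.808 by edgeR) did not pass, though with library size alone it was 0.75 (adjusted p = 0.0264). Of 13 tested genes of renal magnesium handling, 2 were higher and 8 lower in uIRI, beside 28.3% higher and 26.3% lower among all genes. The lower genes included Pvalb, a parvalbumin gene of the distal convoluted tubule (-7.27 ± 0.86), the paracellular channel gene Cldn10 (-2.23 ± 0.22) and Cnnm2 (-1.23 ± 0.14). Pvalb was at 0, 0.073 and 0.24 CPM in uIRI 1, 2 and 3, so the size of its fitted change is set by values near 0. Those called higher were the transporter genes Slc41a1 (0.75 ± 0.12) and Slc41a3 (1.33 ± 0.26). Against sham, 1 was higher and 9 lower in uIRI+MSC, beside 22.1% higher and 20.3% lower among all genes. With library size alone 3 were higher and 6 lower in uIRI.

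Of the remaining ligands, the neuregulins, which bind Erbb3 and Erbb4, Nrg1 stood at 7.38 and 6.81 CPM in sham, 5.35 to 11.5 in the uIRI and 9.74 to 11.9 in the uIRI+MSC libraries and did not pass in uIRI against sham (0.14 ± 0.32; 0.79 and adjusted p = 0.0485 with library size alone). Nrg2 was at 0 and 0.46 CPM in sham and 1.75, 1.14 and 0.989 in uIRI, a change of 2.44 ± 0.82 (adjusted p = 0.0325 by edgeR), and without uIRI 1 no neuregulin was called. Nrg4 changed by -1.31 ± 0.52 and did not pass (adjusted p = 0.0602 by edgeR). Nrg3 was at 0 in every library.

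Genes that cut ligand precursors, control the cutting or inhibit it were more often called higher than lower, but the 2 main proteases did not pass. Of 15 genes of ligand shedding and its inhibitors, 9 were higher and 2 lower in uIRI, with a median log2 change of 0.65, and the same counts were found in uIRI+MSC against sham. Among all tested genes 28.3% were called higher and 26.3% lower in uIRI. Adam17, the main protease for Areg, Ereg, Hbegf and Tgfa, stood at 48.5 and 51.9 CPM in sham and 51.3, 89.5 and 54.0 in uIRI and did not pass (0.37 ± 0.25), but passed with library size alone (1.03, adjusted p = 0.00487). Nor did Adam10, the main protease for Egf and Btc (-0.04 ± 0.37; 0.62 with library size alone). Rhbdf2, which encodes iRhom2, the partner that brings Adam17 to the cell surface, was at 20.1 and 21.7 CPM in sham, 53.1 to 60.4 in the uIRI and 60.0 to 68.6 in the uIRI+MSC libraries, a change of 1.44 ± 0.13 in uIRI (adjusted p = 7.34e-05 by edgeR). Adam19 changed by 2.58 ± 0.25.

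The protease inhibitors moved in both directions. Timp1 rose by 6.33 ± 0.68 on the log2 scale (adjusted p = 0.000136 by edgeR), and Timp3, which encodes an inhibitor of Adam17, fell by 1.84 (SE 0.22; adjusted p = 0.000207 by edgeR). Timp2 also rose, by 2.90. The summed level of the 15 genes was 4052 to 4167 CPM in sham and 2437 to 2756 in uIRI. Timp3 alone stood at 3335 and 3283 CPM in sham. Adam9 was the other gene called lower (-0.75 ± 0.17; -0.07 and not called with library size alone). With library size alone 12 of the 15 were higher and 1 lower.

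Of 25 adaptors and kinases downstream of the receptors 6 were higher and 7 lower in uIRI, with a median of -0.16, near the 28.3% higher and 26.3% lower among all genes. Library size alone gave 15 higher and 1 lower. Stat3 rose by 1.32 ± 0.13 (adjusted p = 9.3e-05 by edgeR), from 85.0 and 94.2 CPM in sham to 216, 235 and 218 in uIRI. Akt1 rose by 0.79 ± 0.13. Eps8, which encodes a substrate of Egfr, fell by 1.53 (SE 0.18; adjusted p = 0.00023 by edgeR). All 3 kept these directions with library size alone, at 1.98, 1.46 and -0.86.

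Of 20 feedback inhibitors of the receptors and of ERK 7 were higher and 4 lower in uIRI, with a median of 0.19, again near the shares among all genes. Errfi1, which encodes MIG6, an inhibitor that binds the Egfr kinase directly, stood at 659 and 689 CPM in sham and at 164.5, 242 and 213 in uIRI. The uIRI+MSC libraries lay at 441, 447 and 546, between the other groups and without overlap. The change in uIRI was -1.70 ± 0.19 (adjusted p = 0.000172 by edgeR), and -1.05 with library size alone. Between uIRI+MSC and uIRI it was 1.21 ± 0.18, with an unadjusted p = 9.38e-05 and an adjusted p = 0.111 by edgeR, so it did not pass. Against sham the uIRI+MSC change was -0.50 ± 0.19 (adjusted p = 0.0673 by edgeR), and 0.01 with library size alone. Errfi1 therefore had the same order of groups as Erbb3, lowest in uIRI. That order was not particular to them, since the summed proximal tubule markers given below had it too.

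Other feedback genes rose. Dusp5, an ERK phosphatase gene, rose by 1.77 ± 0.26 and Spry1 by 1.13 ± 0.15 (adjusted p = 0.00033 by edgeR). Dusp6, another ERK phosphatase gene, did not pass (-0.08 ± 0.13), and with library size alone was at 0.59 (adjusted p = 0.00218). Of the 20 genes, 15 were higher and 1 lower with library size alone. With TMM, 5 were higher and 0 lower in uIRI+MSC against sham, where 22.1% of all tested genes were called higher and 20.3% lower.

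Genes known to respond to ERK signalling were mostly higher, where 28.3% of all tested genes were called higher and 26.3% lower in uIRI. Leaving out the members Ereg and Hbegf, 9 of 11 were higher and 1 lower in uIRI, with a median of 1.68, and 7 were higher and 1 lower in uIRI+MSC against sham, with a median of 1.23. Setting genes without counts in sham to their lower bound left these medians, and those of the marker lists that hold such genes, at the same values. Etv4, a transcription factor gene, rose by 2.98 ± 0.34 (adjusted p = 0.000178 by edgeR), from 0.68 and 0.829 CPM in sham to 7.21, 5.39 and 5.46 in uIRI. Plaur, which encodes the urokinase receptor, rose by 2.40 ± 0.31. Ccnd1, the cyclin D1 gene, went the other way, at -0.93 ± 0.16 (adjusted p = 0.00158 by edgeR; -0.27 and adjusted p = 0.174 with library size alone). Etv5 did not pass in uIRI (-0.38), nor did Dusp6 of the feedback list. The genes of the ERK-responsive list respond to many signals besides the EGF family.

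**Figure D5:**
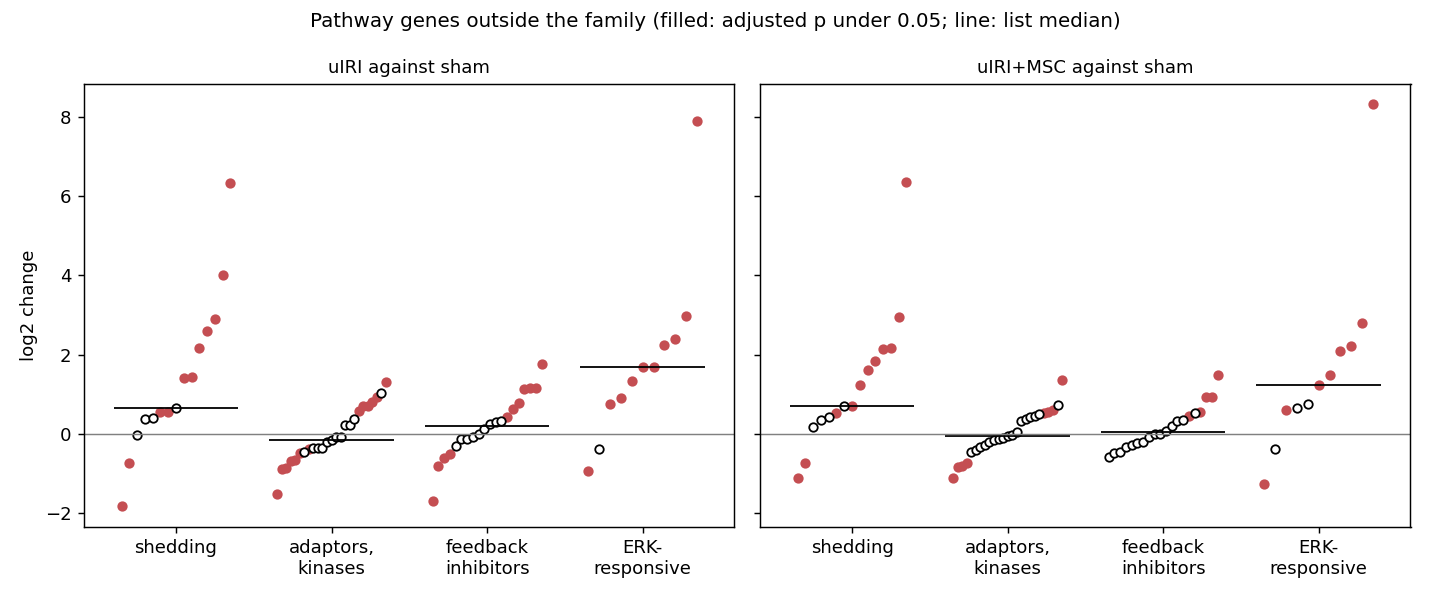
Log2 change (vertical axis) of each pathway gene outside the family, by list, in uIRI against sham (left) and uIRI+MSC against sham (right), with filled points for an adjusted p under 0.05 and a line at the list median. The medians of the ERK-responsive list, 1.68 and 1.23, lie above those of the other 3 lists, and the highest point of that list, Fosl1, had no counts in sham, so its height depends on the prior count of the fit.

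None of the genes in these lists was called in uIRI+MSC against uIRI by edgeR. Counts at an unadjusted p under 0.05 over all genes, and by the other tools, are given above.

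Markers of other cell types moved with the groups. Of 14 injured tubule markers 14 were higher in uIRI, among them Lcn2 (6.11), Cd44 (5.11) and Vcam1 (4.89, all log2 changes), and their sum was 1066 to 1497 CPM in sham, 6718 to 9021 in the uIRI and 11755 to 16890 in the uIRI+MSC libraries. Most of that sum was Spp1, the osteopontin gene, at 4509 to 6424 CPM in uIRI and between 9026 and 13180 in uIRI+MSC, and the median log2 change of the 14 markers between these groups was 0.0011. All 11 macrophage markers were higher, with sums of 237.6 to 276 CPM, 3366 to 5113 and 1977 to 2633. All 10 fibroblast markers were higher, with sums of 388.7 to 583.2, 4543 to 10512 and 2718 to 4977. All 12 proximal tubule markers were lower in uIRI, with sums of 22035 to 22484, 1532 to 4630 and 6703 to 8090.

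Regulatory T cells and group 2 innate lymphoid cells are known sources of amphiregulin, and 6 of their 9 tested markers were higher and 1 lower in uIRI. Foxp3 was at 0 in sham, at 7.34, 3.30 and 1.88 CPM in uIRI 1, 2 and 3 and at 3.02, 2.57 and 1.93 in uIRI+MSC. Il1rl1 stood at 0.777 and 1.29 CPM in sham, 9.09 to 18.0 in the uIRI and 12.2 to 14.7 in the uIRI+MSC libraries. Il5 and Il13, cytokine genes of group 2 cells, were at 0 in sham and in uIRI+MSC and at most 0.101 CPM in uIRI. The sum of the 11 markers, carried mainly by Rora, was 102.8 to 114.7, 98.4 to 131.7 and 91.5 to 126.6. Of 9 mast cell and basophil markers 3 were tested, with 1 higher (Hdc). Cpa3 and Mcpt4 were at 0 in sham and Fcer1a in every library, and the sums were 28.8 to 36.4, 39.3 to 47.2 and 35.6 to 40.7. These sums were carried mainly by Kit, at 27.3 and 35.3 CPM in sham, which did not pass in uIRI. Of 10 urothelium markers 1 was higher, Sprr2f, at least 83.0-fold above the sham floor. The part of these cell types in the levels of the EGF family was not tested.

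Genes whose levels ran most like those of a member were named by Pearson's r of log2 CPM over the 8 libraries, from 8285 genes with a mean of at least 5 FPKM in some group. The libraries share their group and scaling, and any gene that separates the groups the same way scores high, so r is a description. For Egf the closest were Scnn1a, a subunit gene of the epithelial sodium channel (r = 0.998), Mfsd4 (0.996) and Slc16a7 (0.995), and 187 genes reached 0.95. Erbb3 had 249 such genes, led by Qprt (0.990), Trim7 (0.989) and Gpx1 (0.989).

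Fewer genes ran like the remaining members. For Areg 19 genes reached 0.95, led by Cplx2 (0.972), Nono (0.969) and Sash1 (0.968), and for Ereg 25, led by Dpt (0.978), Prelp (0.977) and Sema4c (0.976). Btc had 8, led by B3galnt1 (0.973), Rnf149 (0.961) and Sh3bgrl2 (0.955). For Erbb2 there were 7, led by Sema3b (0.987), Igfals (0.966) and Kif12 (0.964), and for Egfr 3, namely Itgb6 (0.964), Ipo7 (0.960) and Rnf139 (0.953). Hbegf had 1, Hnrnph2 (0.955). Neither Tgfa, closest to Akirin1 (0.908), Msl2 (0.900) and Zbtb14 (0.898), nor Erbb4, closest to Polr2a (0.934), Arhgap29 (0.929) and RP23-380L19.3 (0.917), had a gene at 0.95.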

How the data were processed

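Kidney messenger RNA was sequenced in 8 libraries. For each gene and library the authors' deposited table holds a raw count and an FPKM value, as named per the file headers. FPKM divides the count by transcript length and by the size of the library. Build GRCm38 is named in the submitters' processing notes, as are StringTie 1.3.3b, edgeR 3.2.0, HISAT2 2.0.4, Bowtie2 2.2.6, SAMtools 1.9 and FastQC 0.10.1, without their roles. Which program counted reads, its strand setting and the annotation release: not given in the sources used here.

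Genes were kept by filterByExpr (minimum count 10). Groups of all 8 libraries were fitted with TMM and the quasi-likelihood model of edgeR 4.0.16 (R 4.3.3, 5 residual degrees of freedom), with Benjamini-Hochberg adjustment over all tested genes at 0.05. SE was derived from the change and its F statistic. DESeq2 1.42.0, limma-voom (limma 3.58.1), median-of-ratios scaling, library size alone, no filter, at least 50 counts in 2 libraries, the 2 groups alone, a replicate block and leaving out each library were the alternatives. The counts of the gene lists under both other scalings, without uIRI 1 and without uIRI+MSC 3 were added after seeing the data. A prior count of 2 was added for log2 CPM per library. FPKM was used only for order, shares and ratios.

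On simulated data for uIRI against sham with 16238 genes, 100 genes were changed 2-fold and 100 were changed 4-fold, at a fixed dispersion. Of these 31% and 94% were recovered, and 7 unchanged genes were called. In the data 9044 genes were called and the spread was not matched, so these shares are not the power of the real comparison. Over genes of high mean count, variance between replicate libraries was 24.3 to 91.6 times that expected from counting. Genes of low count, such as Areg, Ereg and Epgn, were not covered, and for them depth is a limit. The members and gene lists were chosen with earlier results of these data known. All members and other ligands are named, and of each other list up to 3 called genes with the smallest p in uIRI against sham, and up to 2 in uIRI+MSC against uIRI. Genes named beyond that rule (such as Adam9, Adam10, Adam17, Cldn14, Dusp6, Enox1, Slc12a1, Slc41a1, Timp3, Trpm6, Trpv5, Umod, Il5 and Il13) were chosen for their roles or after their values were seen. Likeness names the 3 genes of highest r, leaving out names of the Gm and Rik kinds, except for Hbegf, where 1 is named and the rest are not reported here. Promoter sequences are from RefSeq on GRCm38.p6. Plots used Python 3.11.15 and matplotlib 3.10.9.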

Additional observations from a re-analysis of the deposited data

How the results depend on the processing

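The calls of Egf in both comparisons with sham, of Btc in uIRI against sham and, where it could be tested, of Areg in both comparisons with sham were kept in every alternative run. For Areg these runs are not independent checks, since all share its 0 counts in sham. Except with no filter, they also share a count filter that Areg met only through the injured groups. Of the 10 members 5 were called in uIRI against sham, and 3 with at least 50 counts in 2 libraries, a filter that left 8 members and neither Areg nor Ereg. With library size alone the changes of Hbegf, Egfr and Erbb2 turned to 0.61, 0.29 and 0.33 in uIRI against sham, and those of Hbegf, Egfr, Erbb2 and Erbb3 to 0.46, 0.47, 0.45 and 0.065 in uIRI+MSC against sham. With limma-voom Egf turned to 0.030 in uIRI+MSC against uIRI, and Tgfa and Erbb4 to -0.0024 and -0.23 in uIRI+MSC against sham. With a replicate block Erbb4 turned to -0.22 in uIRI against sham, Egf to 0.049 in uIRI+MSC against uIRI, and Tgfa and Erbb4 to -0.0087 and -0.50 in uIRI+MSC against sham. With that block 5 members and 7959 genes were called in uIRI against sham, 0 and 0 between the injured groups, and 2 and 5753 in uIRI+MSC against sham, where Btc no longer passed (adjusted p = 0.0667). Deviations of same-numbered libraries correlated at -0.21 to 0.11 over 7 pairs, and those of differently numbered libraries at -0.20 to 0.21. With 2 sham libraries, their deviations mirror each other by construction, so these correlations cannot exclude a pairing. The labels do not say that numbers pair samples, and they were not taken to do so.

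The count of all genes called in uIRI+MSC against uIRI was 0 with edgeR, 1364 with DESeq2 and 0 to 8 when a library was left out, with 8 without uIRI 1. In uIRI+MSC against sham it was 7029, and 3938 (without sham 1) to 6914 when a library was left out. Leaving out a library turned signs of members that had not passed. In uIRI against sham the ranges were -0.33 to 0.38 for Hbegf and -0.18 to 0.50 for Erbb4. In uIRI+MSC against uIRI they were -0.49 to 0.62 for Egf, -0.12 to 0.14 for Hbegf and -0.86 to 0.26 for Erbb4. In uIRI+MSC against sham they were -0.32 to 0.39 for Hbegf, -0.11 to 0.27 for Tgfa, -0.068 to 0.020 for Egfr, -0.14 to 0.077 for Erbb2 and -0.74 to 0.45 for Erbb4. The causes were not tested. Where sham is left with 1 library, its spread is taken from the other groups. Ereg could be tested in 11 of 16 alternatives in uIRI against sham, since its counts are low.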
